A study of Mus musculus with 7 samples.

Results

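The genes that shut off the circadian clock's own activators were examined in lungs of bleomycin-challenged mice with and without hyperbaric oxygen (HBO). They were the PER genes Per1, Per2 and Per3, the CRY genes Cry1 and Cry2, the REV-ERB genes Nr1d1 and Nr1d2, and Ciart. These 8 genes were listed by name, with their values in this comparison already known, out of 55401 genes in the count table. All 8 passed the filter on low counts, together with 17457 other genes.

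The mice were male C57BL/6 mice aged 6 to 8 weeks, and all of them had been given bleomycin, an antibiotic that damages DNA and scars lungs, through the trachea. The BLM group (n = 4) received no pressurized oxygen, and the BLM+HBO group (n = 3) breathed oxygen at 2.5 ATA for 90 min per day on 14 consecutive days from day 7. The sample records place the BLM mice in the chamber without pressurization and the methods of the study describe them as untreated, and which applied was not settled here. Lung tissue was collected on day 21 and the right lobes were sequenced, with the total counts between 18157161 and 26365969 per library. On the first principal component of log2 CPM over all tested genes, which held 37.3% of the variance, BLM mice lay between -47.6 and -6.08, BLM+HBO 2 lay next to them at -0.996, and BLM+HBO 3 and BLM+HBO 1 stood apart at 37.8 and 54.8. Each sample is taken as 1 mouse here, although the sources do not state whether mice were pooled. Mice that lost little weight after bleomycin had been excluded by the study. The mice were kept under a light and dark cycle, and the hour at which tissue was taken in each group is not given in the sources used here. Hour of collection and HBO therefore cannot be told apart in these values.

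The circadian clock is a feedback loop that runs in nearly every cell. BMAL1 (gene Arntl) and CLOCK bind E-box sequences and switch on Per, Cry, Nr1d1, Nr1d2 and Ciart. PER and CRY proteins then enter the nucleus and inhibit BMAL1 and CLOCK, CIART binds and inhibits BMAL1, and the REV-ERB proteins, which are nuclear receptors that bind heme, repress Arntl and other genes through response elements shared with the ROR activators. A further set of factors, DBP, TEF and HLF, acts at D-box sequences, where NFIL3 opposes them. In lung the clock is known to run in epithelial cells, fibroblasts and macrophages, and transcripts of its repressors are known to rise and fall strongly over the day.

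Of the 8 repressor genes, 7 had a higher mean in BLM+HBO and 1, Cry1, had a lower one. The fold difference was 2.37 for Nr1d1, 2.09 for Per3, 2.07 for Ciart, 1.95 for Nr1d2, 1.49 for Per2, 1.41 for Per1 and 1.33 for Cry2, and Cry1 was 1.25-fold lower. Since the genes were listed with this comparison known, these values and the counts of calls below are a description. No test was made of the 8 genes as a set. Of all 17465 tested genes, 51.2% had a higher fitted level in BLM+HBO. The study called a gene at P below 0.05, unadjusted, when its fold change also passed 1.5. By these thresholds edgeR placed 4 of the 8 genes on the higher side and 0 on the lower side, against 3.40% and 2.89% of tested genes (6.29% together). Leaving out BLM+HBO 1 made this count 3, beside 659 of 17831 tested genes called in either direction. Leaving out BLM+HBO 3 made it 6, beside 881 of 17813. The 4 genes called with all mice were also those past the fold limit taken alone on the higher side, which 7.60% of tested genes passed on the higher side. In 3 of the 8 genes all BLM+HBO mice lay above all BLM mice, against 4.05% of tested genes, and in 0 they lay below, against 4.72%. With adjustment over all genes, edgeR and limma called 0 of the 8 and DESeq2 called 2, against 0.779% of the genes it adjusted, and 6 had an unadjusted edgeR P below 0.05, against 10.7%. The median log2 difference was 0.77 over the 8 genes and 0.0071 over all tested genes. In the following paragraphs levels are CPM, counts scaled to library size. Group means stand with their SD (BLM n = 4, then BLM+HBO n = 3), and a log2 difference is the fitted log2 fold change of BLM+HBO over BLM with its standard error. In whole lung, more cells that express a gene and more transcript per cell cannot be told apart.

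**Figure D1:**
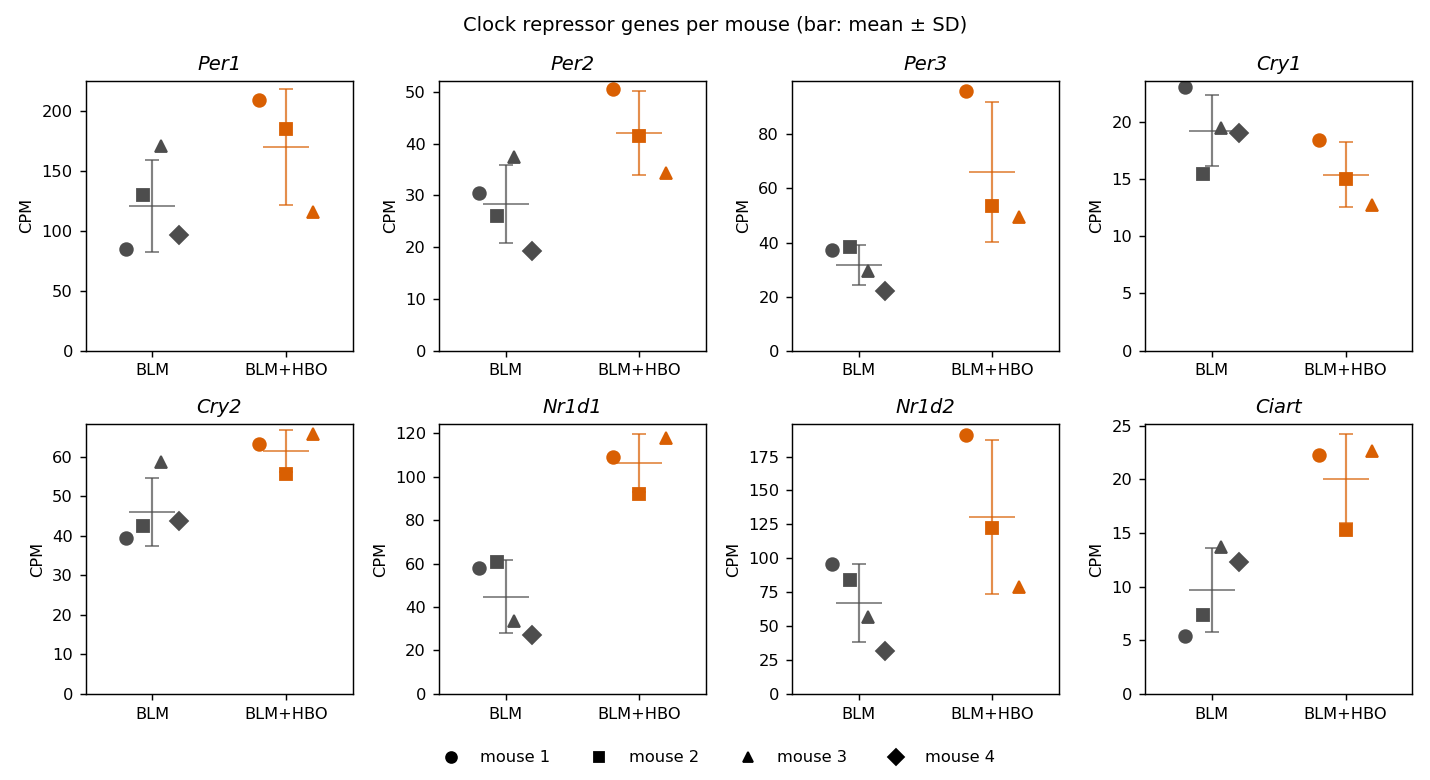
CPM (counts scaled to library size) of each repressor gene, with 1 point per mouse, a marker shape per mouse number, and the mean and SD of each group as bars. The axes start at 0, and mouse numbers do not pair mice of the groups. For Per3, Nr1d1 and Ciart the BLM+HBO points lie above all BLM points, and for Cry1 they lie low in the BLM range or under it.

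The PER genes encode the scaffold proteins of the repressor complex, with Per1 and Per2 also known as genes that respond quickly to hormones and light. Per1 (ENSMUSG00000020893.17, chromosome 11, 69095217 to 69109960 on GRCm38, plus strand) had 85.2, 129.7, 171 and 96.8 CPM in BLM 1 to BLM 4 and 209, 185 and 116 CPM in BLM+HBO 1 to BLM+HBO 3. The groups overlapped, because BLM 3 and BLM 2 lay above BLM+HBO 3. Group means were 120.7 ± 38.6 and 169.9 ± 48.3 CPM, giving a log2 difference of 0.49 ± 0.26. Without BLM+HBO 1 it was 0.32, and without BLM 3 it was 0.71.

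Per2 (ENSMUSG00000055866.9, chromosome 1, 91415982 to 91459324, minus strand) had 30.4, 26.1, 37.4 and 19.3 CPM in the BLM mice and 50.5, 41.4 and 34.3 CPM in the BLM+HBO mice. A single pair overlapped, BLM 3 above BLM+HBO 3. The log2 difference was 0.57 ± 0.21, which puts its fold difference just under the study's limit of 1.5.

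Per3, the PER gene known as least needed for the rhythm itself (ENSMUSG00000028957.12, chromosome 4, 151003652 to 151044665, minus strand), had the widest gap of the family. It had 37.2, 38.2, 29.4 and 22.0 CPM in the BLM mice and 96.0, 53.4 and 49.3 CPM in the BLM+HBO mice. All BLM+HBO mice were above all BLM mice, and BLM+HBO 1 stood well above the other members of its group. Group means were 31.7 ± 7.58 and 66.2 ± 25.9 CPM, giving a log2 difference of 1.06 ± 0.26 that was 0.70 without BLM+HBO 1. It lies within the annotated span of Camta1 on the same strand, with 0 shared exon bases.

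The sequences before the start sites of Per1 and Per3 are shown because the genes of the family carry different clock motifs there. Capitals mark an E-box (CACGTG) in Per1 and D-boxes (TTATGTAA) in Per3, each printed 5′ to 3′ along the gene's strand from RefSeq on GRCm38.p6. The Per1 stretch is chr11:69098699-69098947 and lies in an intron of a longer Per1 transcript, ahead of a start site inside the gene. The Per3 stretch is chr4:151044666-151044915.
Per1: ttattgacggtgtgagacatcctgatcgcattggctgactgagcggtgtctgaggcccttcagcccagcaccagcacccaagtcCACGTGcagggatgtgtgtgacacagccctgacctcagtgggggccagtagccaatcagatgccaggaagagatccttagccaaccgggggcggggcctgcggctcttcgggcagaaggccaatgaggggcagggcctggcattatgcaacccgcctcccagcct
Per3: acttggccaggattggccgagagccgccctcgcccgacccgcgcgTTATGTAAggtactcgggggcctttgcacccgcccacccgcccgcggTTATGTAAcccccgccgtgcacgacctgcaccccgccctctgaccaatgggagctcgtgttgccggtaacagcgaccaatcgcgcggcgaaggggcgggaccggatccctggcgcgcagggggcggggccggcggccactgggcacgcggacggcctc
The E-box of Per1 lies at -166 to -161 from that start site, and a second Per1 start site had no match to either motif in its window. The D-boxes of Per3 lie at -205 to -198 and at -158 to -151.

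The CRY genes encode the flavoprotein-related repressors that silence BMAL1 and CLOCK most directly, and their differences had opposite signs here. Cry1 (ENSMUSG00000020038.10, chromosome 10, 85131700 to 85185064, minus strand) had 23.0, 15.4, 19.4 and 19.0 CPM in the BLM mice and 18.4, 15.03 and 12.7 CPM in the BLM+HBO mice. Both groups overlapped, with BLM 2 below BLM+HBO 1. Group means were 19.2 ± 3.12 and 15.4 ± 2.84 CPM, giving a log2 difference of -0.32 ± 0.18, and with each mouse left out it stayed between -0.47 and -0.21.

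Cry2 (ENSMUSG00000068742.11, chromosome 2, 92403646 to 92434043, minus strand) had 39.4, 42.5, 58.7 and 43.6 CPM in the BLM mice and 63.1, 55.6 and 65.7 CPM in the BLM+HBO mice. BLM 3 was the only BLM mouse inside the BLM+HBO range. The log2 difference was 0.42 ± 0.15, with the narrowest spread of the 8 genes within BLM+HBO (a coefficient of variation of 8.54%). Cry2 shares 295 exon bases, 4.67% of its exons, with the noncoding gene D930015M05Rik on the other strand, which had at most 25 reads in a library.

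Set per length, the ratio of Cry1 to Cry2 was 1.11, 0.685, 0.626 and 0.825 in the BLM mice and 0.551, 0.511 and 0.366 in the BLM+HBO mice. All BLM+HBO mice had a lower ratio than all BLM mice. The ratio joins genes of opposite sign that were listed with the comparison known, and it was not tested. The upstream sequence of Cry1, chr10:85185065-85185304 on GRCm38.p6, is shown because Cry1 had the opposite sign to Per1 and Ciart, whose windows also hold E-boxes, with the E-box and the related E'-box (CACGTT, here read on the other strand) in capitals.
Cry1: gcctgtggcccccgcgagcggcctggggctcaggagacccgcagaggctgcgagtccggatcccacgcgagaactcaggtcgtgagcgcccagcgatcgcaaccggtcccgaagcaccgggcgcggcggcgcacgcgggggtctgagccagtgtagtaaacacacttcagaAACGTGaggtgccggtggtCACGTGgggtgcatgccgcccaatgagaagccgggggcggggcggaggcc
The E-box lies at -60 to -55 and the E'-box at -79 to -74 from the start site. Cry2 had an E'-box at -166 to -161 and no E-box in its window.

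The REV-ERB genes encode the repressors of Arntl, and Nr1d1 had the widest difference of all 8 genes. Nr1d1 (ENSMUSG00000020889.11, chromosome 11, 98767932 to 98775333, minus strand) had 57.9, 60.6, 33.7 and 26.96 CPM in the BLM mice and 109.2, 91.8 and 117.8 CPM in the BLM+HBO mice. Every BLM+HBO mouse exceeded every BLM mouse, and BLM 3 and BLM 4 were the low members of their group. Group means were 44.8 ± 16.9 and 106.3 ± 13.2 CPM, giving a log2 difference of 1.25 ± 0.26, which ranged from 1.07 to 1.43 with each mouse left out.

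Nr1d1 lies tail to tail with Thra, a thyroid hormone receptor gene on the other strand, and shares 263 exon bases with it, 8.55% of its own. The counting as described leaves out reads that fall on both genes and does not use the strand, so the level of Nr1d1 outside the shared bases is what was counted, and antisense reads there cannot be told from its own. Thra itself averaged 84.3 ± 13.0 and 88.3 ± 11.9 CPM, giving a log2 difference of 0.07 ± 0.14. The upstream sequence of Nr1d1 is shown with the single E'-box of its window, again read on the other strand, in capitals at -28 to -23 from the start site in chr11:98775378-98775627 on GRCm38.p6.
Nr1d1: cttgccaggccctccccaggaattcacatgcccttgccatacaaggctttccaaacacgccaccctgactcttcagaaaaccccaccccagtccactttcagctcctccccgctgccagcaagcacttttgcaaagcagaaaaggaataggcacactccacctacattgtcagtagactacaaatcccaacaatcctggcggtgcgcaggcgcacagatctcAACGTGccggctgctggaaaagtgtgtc

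Nr1d2 (ENSMUSG00000021775.11, chromosome 14, 18204054 to 18239127, minus strand), which encodes the related REV-ERB beta, had the widest fold spread of the 8 genes within each group. It had 96.1, 84.3, 56.4 and 31.6 CPM in the BLM mice and 190.9, 122 and 78.6 CPM in the BLM+HBO mice. BLM+HBO 3 lay below BLM 1 and BLM 2, so the groups overlapped. The log2 difference was 0.96 ± 0.37, falling in size to 0.58 when BLM+HBO 1 was left out and reaching 1.22 when BLM+HBO 3 was. The ratio of Nr1d1 to Nr1d2 per length was between 1.05 and 1.498 in the BLM mice, 1.01 and 1.32 in BLM+HBO 1 and BLM+HBO 2, and 2.63 in BLM+HBO 3, so the pair differed in which BLM+HBO mouse stood highest.

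Ciart, also called CHRONO (ENSMUSG00000038550.10, chromosome 3, 95878503 to 95882251, minus strand), had the fewest reads, from 98 to 604 per library. It had 5.40, 7.38, 13.7 and 12.3 CPM in the BLM mice and 22.3, 15.3 and 22.6 CPM in the BLM+HBO mice. The groups did not overlap, although BLM+HBO 2 was close to BLM 3. Group means were 9.69 ± 3.95 and 20.1 ± 4.12 CPM, giving a log2 difference of 1.05 ± 0.30, from 0.85 to 1.26 with each mouse left out. The antisense gene C920021L13Rik runs through the same span on the other strand with 0 shared exon bases. It averaged 5.56 ± 2.74 and 8.52 ± 2.64 CPM, and since strand was not used, reads of one gene within introns of the other cannot be told apart.

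The upstream sequence of Ciart, chr3:95882252-95882478 on GRCm38.p6, is shown because it holds 3 E-boxes, in capitals, at -116 to -111, -58 to -53 and -44 to -39 from the start site.
Ciart: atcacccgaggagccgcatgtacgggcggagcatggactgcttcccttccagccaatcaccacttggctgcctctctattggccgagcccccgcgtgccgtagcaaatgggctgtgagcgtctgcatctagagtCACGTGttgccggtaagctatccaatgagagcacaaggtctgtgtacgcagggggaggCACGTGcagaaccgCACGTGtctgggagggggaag
Of 32851 RefSeq windows of the same length, from 250 bases before to 50 bases after a start site, 0.0883% held 3 or more E-boxes and 7.15% held any. In all, 7 of the 8 genes had a window and Per2 had none. Over both strands, E-boxes were in the windows of Per1, Cry1 and Ciart, E'-boxes in those of Cry1, Cry2 and Nr1d1 (4.68% of all windows), and D-boxes (TTATGTAA or TTACGTAA) in that of Per3, which held 2 (1.06% of all windows held any and 0.0244% held 2 or more). The words TAGGTCA and TGGGTCA, the core of the REV-ERB and ROR element (6.45% of all windows), the cyclic AMP element TGACGTCA (1.79%) and the full palindromic glucocorticoid element (0.00913%) had no match in these windows. The 3 words for E-box, E'-box and D-box do not overlap one another in any window shown. A match is a stretch of letters and no measure of binding, and the window of Nr1d2 held no match except the general CCAAT box, which 37.4% of all windows held.

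**Figure D2:**
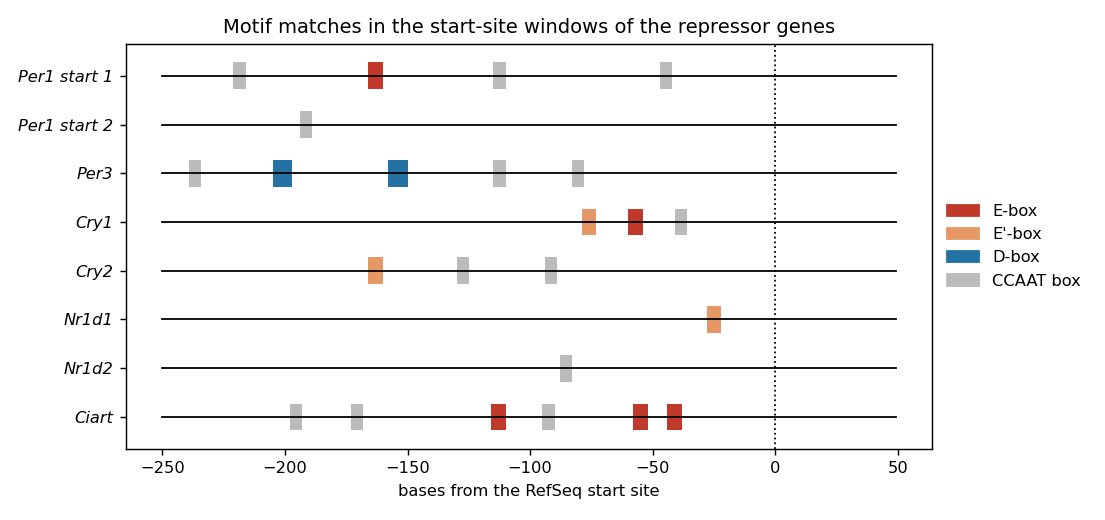
Positions of motif matches in the windows of 7 repressor genes, in bases from the RefSeq start site (dotted line), with colours for E-box, E'-box, D-box and CCAAT box. Ciart holds 3 E-boxes and Per3 holds 2 D-boxes, and no clock motif of these kinds falls after a start site.

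Levels can be compared between genes only per length, and RPKM, the CPM divided by the exonic length in kilobases, was used for this. In BLM the order of the means was Per1 (21.4), Nr1d1 (14.6), Nr1d2 (12.4), Cry2 (7.29), Cry1 (5.75), Per2 (4.83), Ciart (4.29) and Per3 (3.30 RPKM). The range of each gene in this order overlapped that of the next over the 4 BLM mice, although within each BLM mouse Nr1d1 was above Nr1d2. In BLM+HBO the means were 34.5 for Nr1d1, 30.2 for Per1, 24.1 for Nr1d2, 9.73 for Cry2, 8.88 for Ciart, 7.18 for Per2, 6.89 for Per3 and 4.60 RPKM for Cry1. There Nr1d2, at 14.5 RPKM or more, lay above Cry2, at 10.4 RPKM or less, and the ranges of the other neighbours overlapped. Cry1 thus had rank 5 of 8 in BLM and rank 8 in BLM+HBO.

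**Figure D3:**
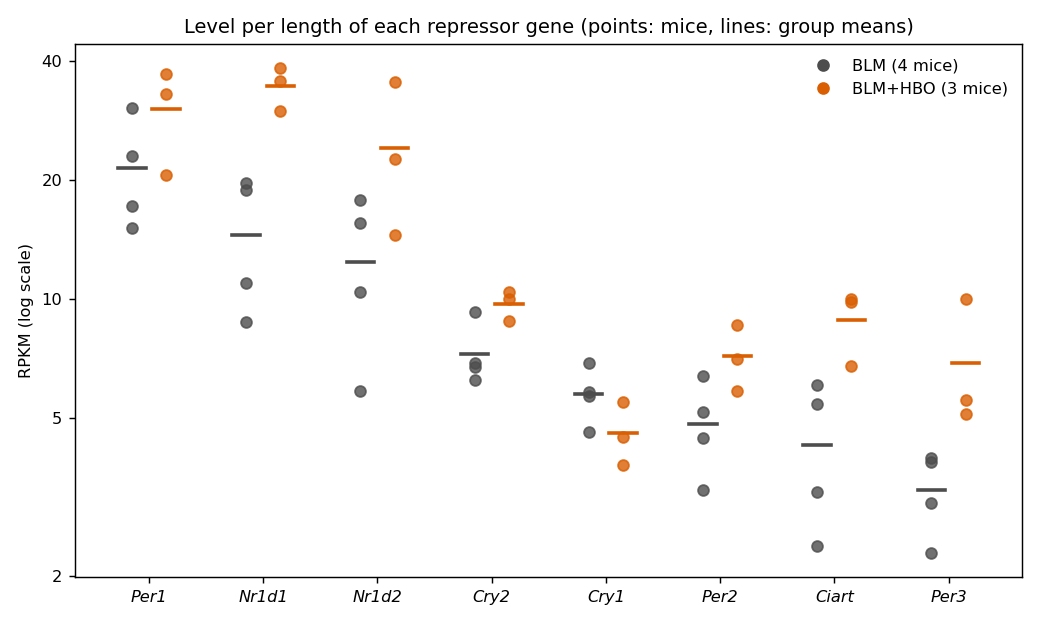
Level per exonic length (RPKM, log scale) of each repressor gene, ordered by the BLM mean, with points for mice and lines for group means. The levels of neighbouring genes overlap in BLM, and Cry1 is the only gene whose BLM+HBO mean (4.60) is under its BLM mean (5.75).

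Within a group, the highest and the lowest mouse were not the same for all repressor genes. In BLM, the highest mouse was BLM 3 for Per1, Per2, Cry2 and Ciart, BLM 1 for Nr1d2 and Cry1, and BLM 2 for Per3 and Nr1d1. BLM 4 was the lowest for Per2, Per3, Nr1d1 and Nr1d2, and BLM 1 for Per1, Cry2 and Ciart. The highest BLM mouse exceeded the lowest by 3.04-fold for Nr1d2, 2.54-fold for Ciart, 2.25-fold for Nr1d1, 2.01-fold for Per1, 1.93-fold for Per2 and 1.74-fold for Per3, and by 1.496-fold for Cry1 and 1.49-fold for Cry2, where the median over tested genes with no zero was 1.43-fold.

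In BLM+HBO, BLM+HBO 1 was highest for Per1, Per2, Per3, Cry1 and Nr1d2, and BLM+HBO 3 for Cry2, Nr1d1 and Ciart. The mean z-score of the 8 genes, on log2 CPM over the 7 mice, was 1.15 in BLM+HBO 1, 0.441 in BLM+HBO 2 and 0.217 in BLM+HBO 3, and -0.397, -0.451, -0.0063 and -0.948 in BLM 1 to BLM 4. Every BLM+HBO mouse was above every BLM mouse in this mean, which is a description of genes listed with the comparison known. Without BLM+HBO 1, the median log2 fold change of the 8 genes was 0.50.

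**Figure D4:**
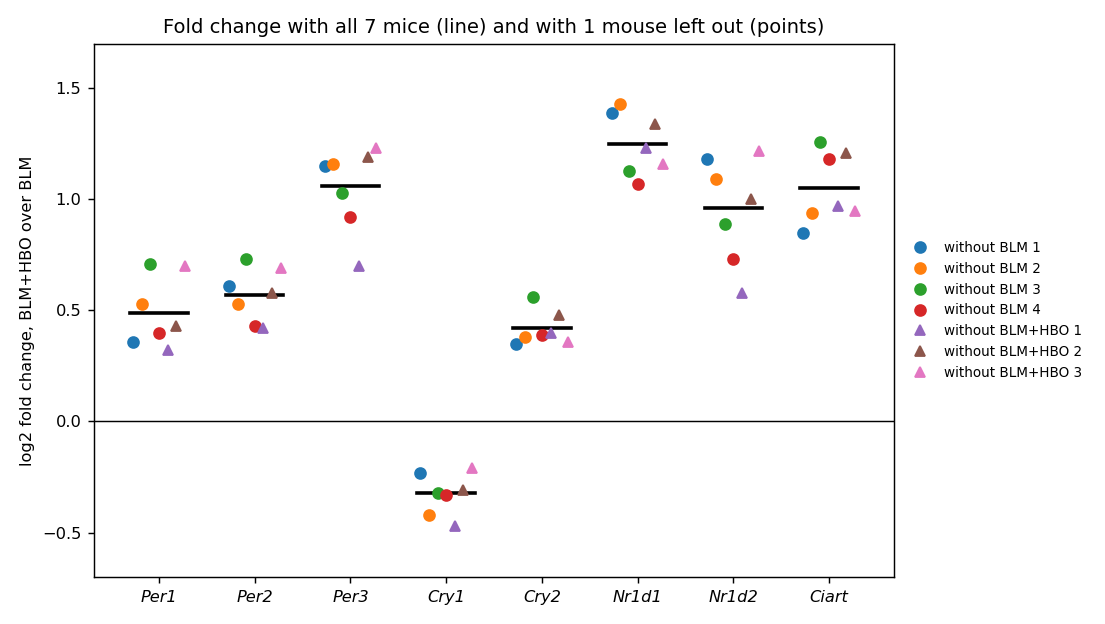
Log2 fold change of each repressor gene with all 7 mice (black lines) and with 1 mouse left out (circles for BLM mice, triangles for BLM+HBO mice). No point crosses 0, and leaving out BLM+HBO 1 moved Nr1d2 from 0.96 to 0.58 and Per3 from 1.06 to 0.70.

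The other genes of the clock, and glucocorticoid-induced and immediate-early genes beside them, were taken from lists that were set with earlier results of these mice known. The counts use edgeR at the thresholds of the study. Of 47 tested genes in 6 lists (activators, output factors, kinases, ligases and other partners of PER and CRY, corepressors, glucocorticoid-induced and immediate-early genes) 4 were past them on the higher side and 4 on the lower side, against 3.40% and 2.89% of all tested genes. Among these, Fkbp5, Nr4a1 and Egr2 came from the glucocorticoid-induced and immediate-early lists. Without BLM+HBO 1, the number past the thresholds was 4 in all, beside 659 of 17831 tested genes. After Benjamini-Hochberg adjustment over all genes, edgeR and limma called 0 of the 47 and DESeq2 called 1 (0.779% of the genes it adjusted), while 9 had an unadjusted edgeR P below 0.05 (10.7% of all tested genes).

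Of all tested genes, 2.89% were past the thresholds on the lower side and 3.40% on the higher. Among the activators, which bind the E-boxes or oppose REV-ERB, 1 of 5 tested genes was past them on the lower side and 0 on the higher. This was Arntl, with 15.4, 22.3, 19.3 and 31.5 CPM in the BLM mice and 6.49, 10.8 and 16.7 CPM in the BLM+HBO mice, a log2 difference of -0.96 ± 0.33 (edgeR adjusted P = 0.423). BLM 1 lay below BLM+HBO 3. Clock (-0.27 ± 0.17) and its relative Npas2 (-0.62 ± 0.43) were not past the thresholds, nor was the ROR gene Rora (-0.10 ± 0.18). Rorb was under the filter on low counts. The ratio of Nr1d1 to Arntl per length was 9.21, 6.64, 4.28 and 2.09 in the BLM mice and 41.1, 20.8 and 17.2 in the BLM+HBO mice. The groups were apart, as they already were for Nr1d1 alone. The ratio joins genes of opposite sign that were chosen with the comparison known, and it was not tested.

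Among the output factors, 3 of 6 genes were past the thresholds on the higher side and 1 on the lower. The shares of all tested genes were 3.40% and 2.89%. Dbp, a D-box activator, had 25.7, 24.3, 15.5 and 5.58 CPM in the BLM mice and 116.6, 50.1 and 39.2 CPM in the BLM+HBO mice, a log2 difference of 1.95 ± 0.49 (edgeR adjusted P = 0.423). Its relatives Tef (0.83 ± 0.20) and Hlf (1.12 ± 0.43) were also past the thresholds. For Tef the groups did not overlap. For Hlf they did, with BLM+HBO 3 (9.11 CPM) below BLM 1 (15.5 CPM) and BLM 2 (11.4 CPM), and BLM+HBO 1 highest at 40.3 CPM. Nfil3, which opposes DBP, TEF and HLF at the D-box, had a log2 difference of -0.87 ± 0.26. Every BLM+HBO mouse was below every BLM mouse for Nfil3, as for 4.72% of all tested genes. The repressors Bhlhe40 (-0.22 ± 0.23) and Bhlhe41 (0.08 ± 0.18), also called DEC1 and DEC2, were not past the thresholds.

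Of 12 genes whose products act on PER and CRY proteins, mostly kinases and ubiquitin ligases, 0 were past the thresholds in either direction. Of all tested genes 6.29% were. An unadjusted edgeR P below 0.05 was found for 0 of the 12, against 10.7% of all tested genes. After adjustment, edgeR, DESeq2 and limma called 0 of the 12. The median log2 fold change of the 12 genes was -0.04. Fbxl21, a CRY ligase gene at 1.76 CPM or less, had -0.86 ± 0.41. Every BLM+HBO mouse was below every BLM mouse for Fbxl21, as for 4.72% of all tested genes. Prkaa2, an AMPK subunit, had 0.35 ± 0.18. Btrc, a ligase subunit, and Usp2, a deubiquitinase, had -0.14 ± 0.12 and 0.16 ± 0.18. Of the 6 corepressor genes of REV-ERB, 0 were past the thresholds by edgeR, 0 had an unadjusted P below 0.05, and DESeq2 and limma called 0 after adjustment. Their median was -0.06, with Tbl1x at -0.11 ± 0.13, Hdac3 at -0.05 ± 0.11 and Ncor1 at -0.06 ± 0.17. In lists of 12 and 6 genes, counts of 0 are near the shares of 6.29% and 10.7% of all tested genes.

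**Figure D5:**
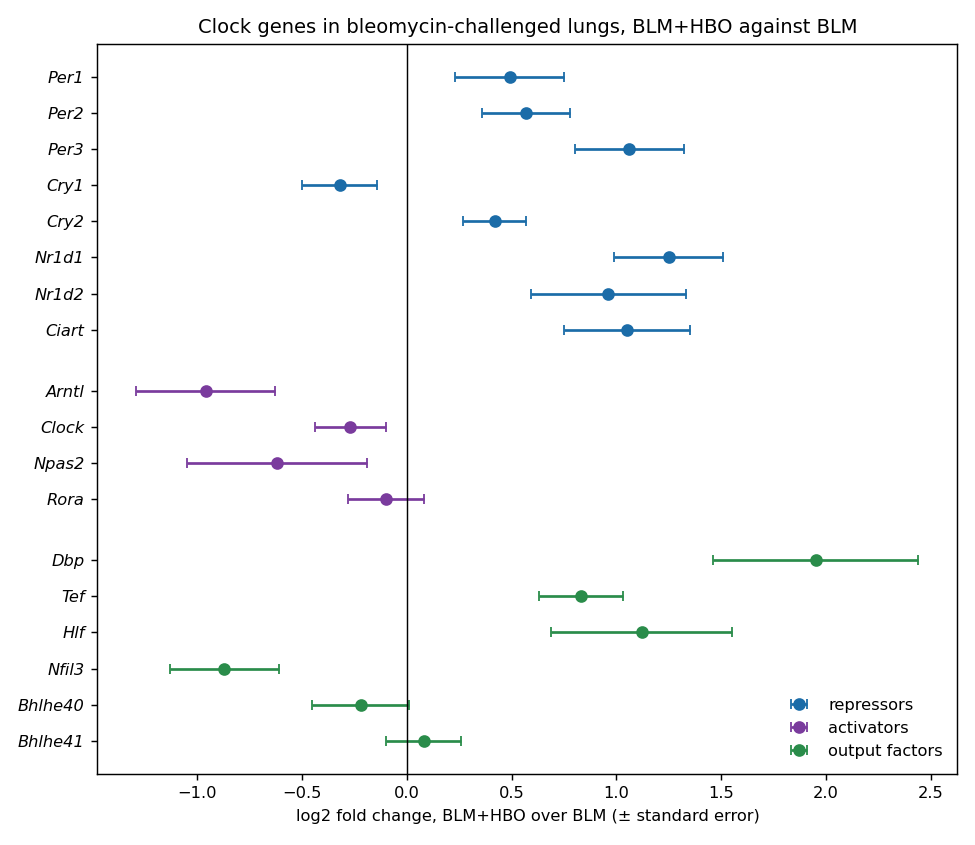
Log2 fold change with its standard error from edgeR for the repressors and for activators and output factors named in the text (points with bars, positive values higher in BLM+HBO). Dbp lies farthest to the right at 1.95 and Arntl farthest to the left at -0.96.

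The genes whose levels over the 7 mice were most like the mean z-score of the repressors were chosen by Pearson's r on log2 CPM, which also holds the difference between groups. The repressors did not all follow this mean. Cry1 had r = -0.416 with the mean of the other members, and the rest had 0.547 (Ciart) to 0.937 (Per2). With the group mean removed, r ran from -0.162 (Ciart) to 0.889 (Per2), with Nr1d1 at 0.036 and Cry2 at 0.21. Cry1 had r = 0.283 on that scale, so its negative r held its opposite difference between groups. Among 17457 other genes the 5 most alike were Tbpl1 (r = 0.989), BC030870 (0.979), Podnl1 (0.977), Fsip1 (0.968) and Lrrc57 (0.964), with Tef 11th and Dbp 30th. The 5 most opposed were Erlin2 (-0.972), Git1 (-0.969), Nrbf2 (-0.967), Bcar1 (-0.966) and Pclaf (-0.962), and Arntl was 18th from that end (-0.938). With the group mean removed from each mouse, the most alike were Rpl37, Tm2d1, Ncbp1, Psmc3ip and Syt10 (r from 0.976 to 0.998) and the most opposed were Wiz, Ehmt1, Tyk2, Dedd and Zfp335 (-0.994 to -0.991), so that neither list kept a gene of the first, and Tef (0.859) and Arntl (-0.852) had ranks of 242 and 325 from their ends. These values rest on 7 mice that share groups, and no test was made of them.

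Markers of other cells were past the same thresholds too, which 3.40% of all tested genes passed on the higher side and 2.89% on the lower. Heart muscle genes were past the thresholds on the higher side in 10 of 11 tested (12 listed), with summed levels of 71.2 to 196 CPM in BLM and 169.6 to 729 CPM in BLM+HBO, and Myl2 was at 0 reads in at least 1 library. Macrophage genes were past them on the lower side in 5 of 7 (4524 to 6045 and 1056 to 3739 CPM), and fibroblast genes in 4 of 7, with 1 higher (4631 to 7370 and 1792 to 4744 CPM). Lymphocyte genes were past them on the higher side in 3 of 7 (47.0 to 79.6 and 69.4 to 148 CPM). Alveolar type 2, alveolar type 1 and endothelial genes, which mark the labelled tissue, summed to at least 8833, 3725 and 2008 CPM in every mouse, with 1, 0 and 0 genes past the thresholds. The lists for airway cells (1 higher and 1 lower of 5), smooth muscle (1 lower of 5), adipocytes (1 lower of 4), neutrophils and erythroid cells (0 of 5 each) had summed levels that overlapped between the groups. After adjustment edgeR and limma called 0 genes of these 12 marker lists, and DESeq2 called 4 heart muscle genes and 1 lymphocyte gene. Their part in the levels of the repressor genes was not tested.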

How the data were processed

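RNA from right lung lobes of 7 mice was sequenced by the authors with NEBNext Ultra libraries. Per the labels and the methods of the study, reads were trimmed with Trim Galore, mapped to GRCm38 with HISAT2 (2.2.0 in the submitters' processing notes) and counted per gene with featureCounts, and the deposited values were raw counts without normalization. Counting at default settings uses no strand and leaves out reads shared between places or genes. The annotation release is not given in the sources used here. Symbols came from GENCODE vM21, which named 55141 of 55401 genes.

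Libraries of a group differed by more than sampling noise (mean chi-square per gene of at least 22.1), and each was taken as 1 mouse. Pools of mice could differ in this way too, and whether samples were single or pooled mice is not stated. A standard error is the absolute log2 fold change divided by the square root of the F statistic of the edgeR test. It draws on the spread between these samples and on dispersion moderated over all tested genes. Genes were filtered with filterByExpr (minimum count 10, total 15), scaled by TMM and fitted over all genes with edgeR 4.0.16 (quasi-likelihood test, R 4.3.3), BLM as the reference. CPM and RPKM use TMM library sizes and the exonic length in the table, and log2 CPM a prior count of 2. The script was tested on simulated data.

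The 8 genes, the lists and the rule for named genes were chosen with earlier results of these data known. The rule named the 8 genes, the activators and output factors, up to 4 genes of each other list by P, genes overlapping a member, and the 5 most alike and 5 most opposed. Some genes of this rule are not reported here. Alternatives were DESeq2 1.42.0, limma-trend (limma 3.58.1), RLE and upper-quartile factors, other filters, robust empirical Bayes, a replicate block, other thresholds and leaving out each mouse.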

Additional observations from a re-analysis of the deposited data

How the results depend on the processing

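The log2 fold change of each of the 8 repressor genes kept its sign and moved by less than 1 SD between mice in all 15 alternative fits. Their median ranged from 0.50 to 0.82, against 0.77. The number of the 8 genes past the thresholds was 4, 3 to 6 with each mouse left out, and 6 with an unadjusted P below 0.05 and no fold limit. After adjustment it was 0 by edgeR, 0 by limma-trend and 2 by DESeq2, the tool and threshold pairs of the last 2 being added after the data were seen. The number past the thresholds among the 47 tested genes of the 6 other lists was 8, from 4 (without BLM+HBO 1) to 9 with each mouse left out. With no filter on low counts, where Rorb also enters, it was 11 of the 48 listed genes. After adjustment it was 0 (edgeR), 0 (limma-trend) and 1 (DESeq2). Over all genes the number past the thresholds was 1098, with 659 (without BLM+HBO 1) to 1914 (without BLM+HBO 2) when a mouse was left out. It was 706 without BLM 1, 1940 with no filter on low counts and 1861 with no fold limit. After adjustment it was 0 by edgeR, 0 by limma-trend and 128 by DESeq2.

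Mice with the same number deviated from their group means with correlations of -0.00797, -0.066 and 0.161, and the numbers were not taken as pairs. With the replicate block, and without BLM 4, 4 of the 8 repressor genes, 7 of the 47 and 1253 of all genes were past the thresholds, and the median of the 8 was 0.55. In the same 6 mice without the block it was 0.58. BLM 1 correlated best with BLM+HBO 2, and so not every mouse correlated best with its own number. Ciart, with 98 to 604 reads per library, had the lowest depth of the 8 genes in the BLM libraries. In the BLM+HBO libraries Cry1 was lowest, with 314 to 345 reads. The number of mice limits the precision of every value.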

Other observations

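Per1 is known to respond to glucocorticoids and to immediate-early signals, and 2 lists of such genes were set beside the clock. Of 8 glucocorticoid-induced genes, edgeR placed 0 past the thresholds on the higher side and 1, Fkbp5, on the lower side. The shares of all tested genes were 3.40% and 2.89%. Log2 differences stand with their standard error, group means with their SD. Fkbp5, which encodes a cochaperone of the glucocorticoid receptor, averaged 102 ± 44.3 and 51.3 ± 25.9 CPM, giving a log2 difference of -0.99 ± 0.40 (edgeR adjusted P = 0.442). The groups overlapped for Fkbp5, with BLM+HBO 2 (80.7 CPM) above BLM 4 (49.2 CPM). The next genes by P were Zbtb16 (1.17 ± 0.53), Sgk1 (-0.36 ± 0.17) and Klf9 (0.31 ± 0.17). The median of the list was 0.04.

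Of 10 immediate-early genes, 1 was past the thresholds on the higher side and 1 on the lower, against 3.40% and 2.89% of all tested genes. Nr4a1, an orphan nuclear receptor, had a log2 difference of 1.04 ± 0.45 and Egr2, a zinc finger factor, had -0.65 ± 0.26. For both of these genes the groups overlapped. Junb had -0.40 ± 0.15, under the fold limit. Every BLM+HBO mouse was below every BLM mouse for Junb, as for 4.72% of all tested genes. Sik1, a kinase known to act in the resetting of the clock, had 0.54 ± 0.26. The median was -0.07. After adjustment edgeR, DESeq2 and limma called 0 genes of either list, and at an unadjusted edgeR P below 0.05 there were 1 and 3, against 10.7% of all tested genes.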
